A study of Triticum turgidum subsp. durum with 24 samples.

Results

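Heat stress (HS) was set against control in flag leaves of the durum wheat cv Ofanto, an improved cultivar that the study pairs with the taller, older cv Cappelli. The members were the 6 arrays whose labels name Ofanto together with heat or control, 3 arrays each, of 24 arrays in all, and every probe set (PS) on them other than the manufacturer's control PSs, 61179 in number. The whole series crossed 2 cultivars with 4 treatments, 3 arrays a group, on the Affymetrix Wheat Genome Array, where each PS is a group of short oligonucleotides that report on 1 transcript or on several near-identical ones of the homoeologous genomes. PSs whose names end in _x_at or _s_at hold probes shared between transcripts, so that copies of a gene cannot be told apart there.

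HS plants were kept at 28% soil water content and warmed in steps, 2 days at 30 °C by day and 22 °C by night, 2 days at 34 °C and 26 °C, then 40 °C and 32 °C until the flag leaves were cut. Control plants stayed at 19 °C and 15 °C with the same soil water. In the combined stress (CS) used below the same warming was given while the pots dried to 12.5% soil water, and in drought stress (DS) the pots dried to 12.5% at the control temperature. The text of the labels for HS breaks off at the 34 °C step, and the last step was taken from the methods. The labels describe the leaf as the third one fully expanded, while the methods describe flag leaves at booting. No source used here gives the day on which control leaves were cut relative to the HS leaves. The arrays are called biological triplicates, the number of plants behind each RNA sample is not stated, and p-values therefore measure the spread between these samples.

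The labels conflict for 2 of the 3 control arrays. Ofanto control replicates 2 and 3 carry the drought treatment in their description, although title and source name both call them control. They correlated with control replicate 1 at r of 0.951 to 0.953 over all PSs and with the DS arrays at 0.926 to 0.932. MYB4 (Ta.26049.1.S1_a_at), a transcription factor PS that the study lists among drought genes, read 2515, 2970 and 2461 under HS and 11857, 12373 and 9811 under DS, against 699, 771 and 638 in control replicates 1, 2 and 3. P5CS (Ta.7091.1.S1_at), a proline synthesis enzyme, read 6548, 7408 and 6824 under HS and 19492, 20872 and 20053 under DS, against 5464, 5406 and 4758 in control replicates 1, 2 and 3. Both PSs, chosen after their values were seen, had control replicates 2 and 3 beside control replicate 1 and apart from the DS arrays. They were kept as control, and results that change without them are given as such.

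When leaf cells warm beyond their usual range, proteins unfold and heat shock factors, held inactive in the unstressed cell, bind heat shock elements in the promoters of chaperone genes. Small heat shock proteins hold unfolding proteins in solution, the ATP-driven HSP70 system with its J-domain and GrpE partners refolds them, HSP101 pulls aggregates apart, and chaperonins fold clients such as the Rubisco subunits in an enclosed chamber. In the chloroplast the same conditions lower the activity of Rubisco activase, the heat-labile protein that clears inhibitors from Rubisco.

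Arrays of a group lay close together. Within HS the correlation over all PSs was 0.954 to 0.962, within control 0.951 to 0.956, and between an HS and a control array 0.855 to 0.866. PSs entered the fit if, in 1 or more of the 8 groups, each of the 3 arrays exceeded its own 60th percentile, a stand-in for detection that corresponded to signals of 124.5 to 139.8 on HS arrays and 134.1 to 143.9 on control arrays. The filter kept 28072 PSs (45.9%). Calls required both a limma adjusted p below 0.01 and a 2-fold or larger change, on log2 of the deposited MAS5 signal. HS called 5011 PSs (17.9%), 2916 higher (10.4%) and 2095 lower (7.46%) than control, and 14311 PSs had an unadjusted p under 0.05. All 3 HS arrays lay above all 3 control arrays in 2901 of the 2916 and below them in 2088 of the 2095, and over all kept PSs, called or not, in 8683 and 7982. With every array centred on its median the split was 4002 higher and 1474 lower, the median change of all kept PSs being 0.215 on the log2 scale in that setting and 0.02 as deposited. Without control replicates 2 and 3 the calls numbered 3706, and by the methods' t-test, with its few degrees of freedom, 1223.

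**Figure D1:**
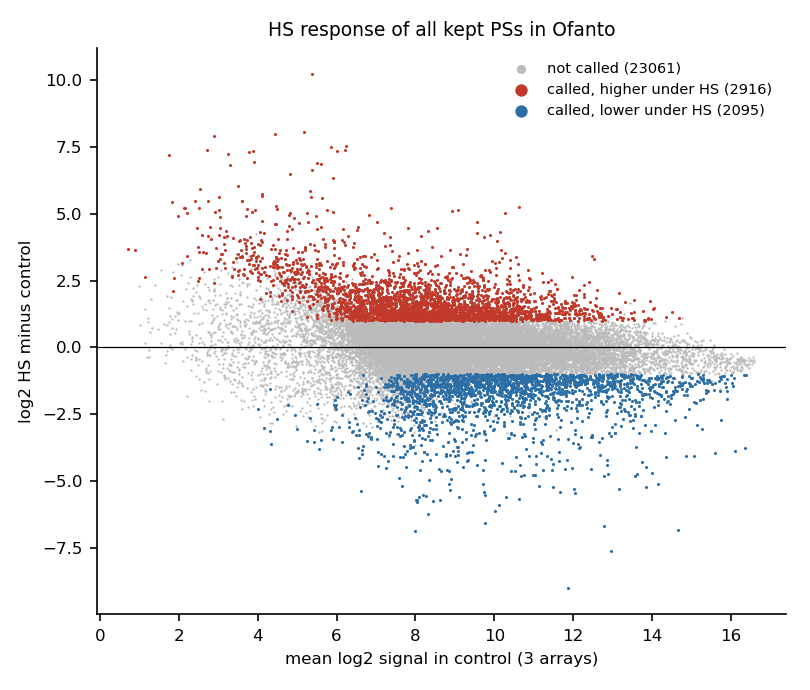
Each point is 1 of the kept PSs, with its mean log2 signal in the 3 control arrays on the x axis and the log2 difference, HS minus control, on the y axis. Called PSs are coloured, 2916 higher under HS in red and 2095 lower in blue, and the brightest control signals lie mostly below 0.

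Technical values moved with the groups and their part in the results was not tested. The spiked poly-A controls averaged 11.01 to 11.05 log2 units on HS arrays and 11.63 to 11.96 on control arrays. The 3′ minus 5′ difference of the ubiquitin control was −1.50 to −1.11 under HS and −1.04 to −0.841 in control. At the bright end the signal scale was lower under HS, where the highest single signals were 71460, 78600 and 76959, against 99313, 101230 and 104760 in control. Of the 244 PSs whose 2 groups averaged above 30000, 9 were called higher and 28 lower, and their median change was −0.48 on the log2 scale. A falling bright PS is therefore to be read beside that median.

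Where 1 group lay near background, a change is given as "at least N-fold", computed with each array's signal set no lower than its 60th percentile. Of the PSs called higher, 681 had no control array above that level, and of those called lower, 434 had no HS array above it. On this bounded scale 32 PSs were at least 16-fold higher and 35 at least 16-fold lower under HS. Gene names came from the study's own lists of responsive PSs and are those of the closest Arabidopsis gene. They cover 2500 kept PSs, 908 of the 5011 called, and leave 4103 without a name here. Since these PSs were listed because they responded in these samples, their background is higher. Among them 36.3% were called, 27.2% higher and 9.16% lower, the median change was 0.55, and a count over any gene list below is not independent evidence of its direction.

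Small heat shock proteins had the highest median change of the lists. Of 24 kept PSs, 21 were called higher under HS (87.5%) and 0 lower, with a median change of 4.94 on the log2 scale and 13 risers without a control array above background. HSP25.3-P (Ta.201.1.S1_at), the chloroplast member, read 46333, 59149 and 44331 under HS, against 9.19, 83.0 and 92 in control, at least 353-fold higher (log2 change 10.23 ± 0.60 SE, limma adjusted p = 4.91e-10). A second HSP25.3-P PS, Ta.12042.1.S1_at, was well above background in both groups at 12575, 20759 and 17843 under HS and 688, 391 and 434 in control, a 34.2-fold rise. The third, Ta.202.1.S1_at, read 6530, 15467 and 11931 under HS, against 29.1, 78.8 and 86.5 in control, and was at least 75.9-fold higher. The remaining HSP25.3-P PS, Ta.2747.1.S1_at, chosen after its values were seen, read 4313, 9087 and 4327 under HS and 12.3, 10.9 and 76.2 in control, at least 39.5-fold higher. In all 4 PSs of this gene every HS array lay above every control array.

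Cytosolic members followed. HSP17.4-CI (Ta.132.1.S1_a_at), a class I protein, read 15108, 29393 and 24947 under HS and 1223, 1007 and 1164 in control (19.8-fold, log2 change 4.31 ± 0.19, adjusted p = 1.99e-11). HSP17.6C-CI (TaAffx.24372.1.S1_at) read 2326, 7861 and 6386 under HS, against 308, 196 and 183 in control, a 21.9-fold rise. HSP17.6-CII (Ta.22973.1.S1_x_at), of class II, read 1952, 10398 and 8757 under HS and 14.9, 103 and 74.3 in control, at least 40.1-fold higher. HSP22.0-ER (Ta.8714.1.S1_at), which carries the endoplasmic reticulum form, read 832, 3832 and 3819 under HS and 93.3, 21.4 and 32.4 in control, at least 16.4-fold higher. No HS array overlapped a control array in any of these 4 PSs, and HS replicate 1 was the lowest HS array in each.

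That replicate was low across the chaperones. HS replicate 1 gave the lowest HS signal in 18 of the 21 rising small heat shock protein PSs, 5 of 6 HSP101 PSs, 21 of 27 HSP70 and HSP90 PSs and 6 of 8 regulator PSs, against 1018 of the 2916 rising PSs as a whole. Chaperonins did not share this, with HS replicate 1 lowest in 5 of 20 and HS replicate 3 in 15. Without HS replicate 1 the same 4 lists had 21, 6, 27 and 8 PSs called higher, and the median of the small heat shock proteins was 5.44 in place of 4.94.

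HSP101, the disaggregase on which acquired thermotolerance depends in Arabidopsis, and its organelle relatives of the ClpB type had 8 kept PSs, 6 called higher and 0 lower, with a median change of 2.68. Ta.261.1.S1_at read 717, 4975 and 4573 under HS, against 41.6, 11.4 and 48.0 in control, at least 18.1-fold higher (log2 change 6.48 ± 1.00, adjusted p = 4.08e-05). Ta.28758.1.S1_at, above background throughout, read 1621, 4532 and 4407 under HS and 651, 418 and 371 in control, a 6.84-fold rise. Ta.9115.2.S1_a_at, annotated as an HSP100 of the organelle type, read 4729, 6136 and 5289 under HS and 718, 921 and 825 in control (log2 change 2.71 ± 0.14). Both HSP101 PSs had their low HS value in replicate 1, while the HSP100 PS varied less between HS arrays. One HSP101 PS, Ta.14762.1.S1_at, pointed the other way at 84.2, 67.9 and 94.7 under HS, against 344, 303 and 241 in control, and did not pass the test (log2 change −1.84, adjusted p = 0.0179).

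**Figure D2:**
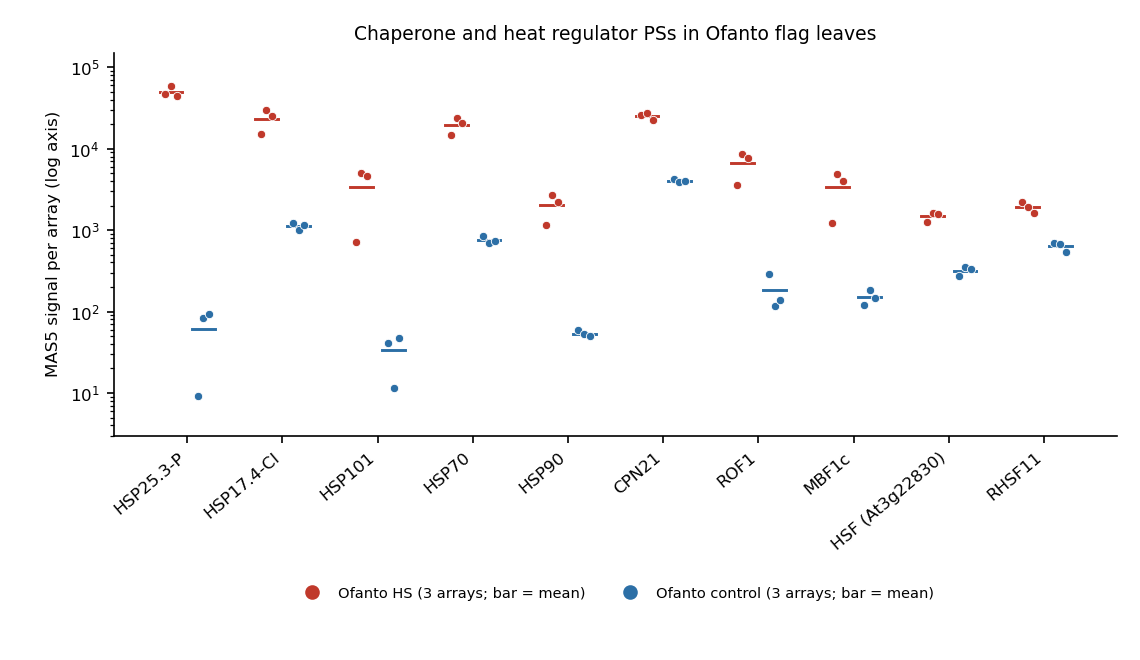
MAS5 signal of 10 chaperone and heat regulator PSs on a log axis, with the 3 HS arrays in red left of the 3 control arrays in blue and a bar at each mean. No HS array overlaps a control array, and HS replicate 1, the leftmost red point, is low in HSP17.4-CI, HSP101, ROF1 and MBF1c.

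The HSP70 and HSP90 machinery, with J-domain proteins, GrpE and other helpers, had 44 kept PSs, 27 higher (61.4%) and 0 lower under HS, and a median change of 1.55. HSP70 (Ta.30802.1.A1_x_at) read 14728, 23833 and 20737 under HS, against 843, 691 and 731 in control, a 25.8-fold rise with the smallest adjusted p of the list's named members (log2 change 4.69 ± 0.16, adjusted p = 5.5e-13). A different family member, At2g32120-like HSP70 (Ta.6123.1.A1_s_at), read 1603, 3052 and 2640 under HS and 58.8, 41.1 and 49.0 in control, at least 16.7-fold higher. The first PS was above background without heat and the second was not, and in neither did the groups overlap.

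Further members, chosen after their values were seen, show the spread within the list. HSP90 (Ta.9140.2.S1_at), the chaperone of signalling proteins, read 1143, 2671 and 2242 under HS, against 58.7, 52.6 and 49.7 in control, at least 13.5-fold higher. GrpE (Ta.4292.1.S1_x_at), the nucleotide exchange factor of organelle HSP70, rose by 2.39 ± 0.17 on the log2 scale. The J-domain protein Ta.28762.1.S1_s_at read 2628, 2573 and 2571 under HS and 591, 458 and 596 in control, a log2 change of 2.25 ± 0.12. Constitutive HSC70-1 was split between PSs. TaAffx.1838.1.S1_x_at read 552, 1063 and 1319 under HS, against 14.5, 18.0 and 19.9 in control, and was called higher, while Ta.10259.1.S1_at read 1535, 2888 and 3273 under HS and 3643, 3670 and 3701 in control and was not called (log2 change −0.59, adjusted p = 0.103). Both PSs carry the same Arabidopsis gene code.

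Chaperonins had 32 kept PSs, 20 higher (62.5%) and 0 lower, with a median change of 1.22, the smallest of the 4 chaperone lists. CPN21 (Ta.13250.1.S1_a_at), the chloroplast co-chaperonin, read 25685, 27633 and 22500 under HS, against 4238, 3879 and 3949 in control, a 6.27-fold rise (log2 change 2.65 ± 0.17, adjusted p = 1.31e-09). Mitochondrial CPN60 (Ta.7715.1.S1_at) read 3784, 4424 and 3948 under HS and 845, 820 and 638 in control, a log2 change of 2.41 ± 0.14. The alpha subunit of the Rubisco-binding chaperonin (Ta.1353.1.S1_at, chosen after its values were seen) read 13433, 15986 and 12877 under HS and 3626, 3164 and 2523 in control, a log2 change of 2.19 ± 0.28. Both organelles were thus represented among the risers, and all chaperonin PSs called had a control level above background.

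Heat shock factors and heat regulators had 12 kept PSs, 8 higher (66.7%) and 0 lower, with a median change of 3.07. ROF1 (Ta.639.1.S1_at), a peptidyl-prolyl isomerase that binds HSP90 and the heat shock factor HSFA2 in Arabidopsis, read 3611, 8634 and 7689 under HS, against 292, 116 and 137 in control (log2 change 5.22 ± 0.32, adjusted p = 6.4e-10), and with control replicates 2 and 3 at background it was at least 34.2-fold higher. MBF1c (Ta.12225.2.S1_at), a transcriptional coactivator needed for thermotolerance in Arabidopsis, read 1210, 4945 and 3963 under HS and 121, 182 and 148 in control, at least 18.7-fold higher. A PS matching At4g21320 (Ta.2822.1.S1_x_at), the HSA32 gene that prolongs acquired thermotolerance in Arabidopsis, read 1912, 2441 and 1759 under HS and 74.3, 28.0 and 31.9 in control, at least 14.4-fold higher. None of the 3 had an HS array overlapping a control array. Another ROF1 PS, Ta.6047.1.S1_at, chosen after its values were seen, read 2381, 2936 and 2954 under HS and 2899, 2512 and 1985 in control. Its groups overlapped and it was not called (log2 change 0.17).

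Among the heat shock factors themselves some PSs were called and others not. The HSFA6B-like PS Ta.28772.1.S1_at read 1248, 1620 and 1592 under HS, against 273, 354 and 329 in control, a 4.66-fold rise (log2 change 2.22 ± 0.35, adjusted p = 5e-05). RHSF11 (TaAffx.34778.1.S1_at), which resembles a rice heat shock factor, read 2200, 1926 and 1639 under HS and 694, 681 and 545 in control, a 3.00-fold rise (log2 change 1.58 ± 0.30, adjusted p = 0.000315). The HSFA2-like PS TaAffx.105519.1.S1_at read 172, 111 and 100 under HS and 16.3, 34.7 and 71.5 in control, mostly near background, and missed the threshold (log2 change 1.86, adjusted p = 0.0501). HSF4 (Ta.11671.1.S1_at), a class B factor picked after its values were seen, read 688, 671 and 673 under HS and 577, 697 and 603 in control, groups that overlapped. The study's primers for RHSF11, shown because they identify the transcript that a name alone does not, were as follows, each 5′ to 3′ and in lower case throughout.
RHSF11 forward: gccgttccccttctctaatc
RHSF11 reverse: cataaactccaaaacatcacacg

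Rubisco activase stood apart from the rest of the photosynthesis and chlorophyll list. Ta.1404.1.S1_at read 60466, 60368 and 61598 under HS, against 1656, 1589 and 1506 in control, a 38.4-fold rise (log2 change 5.26 ± 0.17, adjusted p = 3.73e-13). Of the 26 kept photosynthesis and chlorophyll PSs it was the only one called higher, while 8 were called lower (30.8%) and the list's median was −0.84. The photosystem II 10 K protein (Ta.28750.2.A1_x_at), a peripheral subunit on the lumenal side that lies outside the list and was picked after its values were seen, read 36135, 45700 and 38841 under HS and 1564, 782 and 1552 in control, a 32.3-fold rise (log2 change 5.01 ± 0.34). Its groups, like those of Rubisco activase, lay far apart. The primers of the 10 K protein are shown for the same reason as above.
PSII 10 K forward: gctgtttctctgggcaatcac
PSII 10 K reverse: aagccaaggcactagtattgtagaca

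The 8 falls were PSs of a carbonic anhydrase family protein and of 2 sugar bisphosphatases. The carbonic anhydrase family PS Ta.1156.1.S1_x_at read 4028, 4139 and 4200 under HS, against 12593, 15108 and 14399 in control, 3.40-fold lower (log2 change −1.76 ± 0.12, adjusted p = 4.95e-09). Sedoheptulose-1,7-bisphosphatase (Ta.1988.3.S1_x_at), an enzyme of the Calvin cycle, read 24219, 26464 and 24920 under HS and 51510, 57923 and 54413 in control, 2.17-fold lower. Of its 4 PSs, 2 were called lower and 2 missed the 2-fold limit at log2 changes of −0.98 and −0.84. Fructose-1,6-bisphosphatase (Ta.1166.2.S1_at, chosen after its values were seen), whose annotation is that of the cytosolic enzyme of sucrose synthesis, read 16576, 15591 and 17512 under HS and 37538, 43954 and 42266 in control, 2.49-fold lower. The count of falls in the list was 6 with arrays centred, 4 after quantile normalization and 3 without control replicates 2 and 3.

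The green leaf markers were present in every array, with 6 of 8 kept PSs above background on each and a summed signal of 161580 to 166010 under HS and 259710 to 297690 in control. By limma 0 of the 8 were called, at a median change of −0.60, although 5 had an unadjusted p under 0.05, and the methods' t-test called 0. The light-harvesting protein CP26 (Ta.1139.1.S1_at) read 42420, 41774 and 44160 under HS, against 69433, 79220 and 81591 in control, without overlap but short of the test (log2 change −0.84, adjusted p = 0.0832). The list of seed and pollen marker genes had 0 members among the annotated kept PSs. Markers of dividing cells summed to 42074 to 46957 under HS and 41942 to 44221 in control, while 9 of their 16 PSs were called, 5 higher (31.2%) and 4 lower (25%). The part of either marker list in the results was not tested. Fewer cells of a type and less RNA per cell cannot be told apart in a leaf sample.

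**Figure D3:**
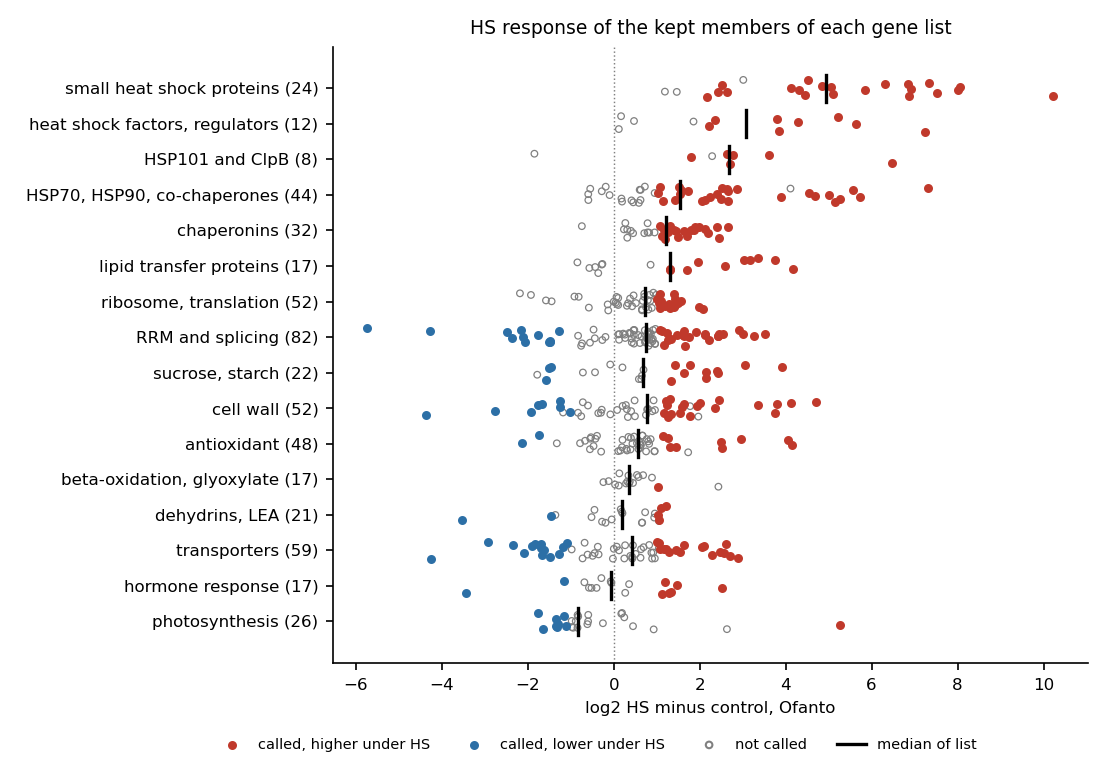
Each point is 1 kept PS, placed by its log2 difference, HS minus control, with the number of kept PSs of each list in brackets; red and blue mark PSs called higher and lower, open points those not called, and black bars the medians. Chaperone and regulator lists lie to the right, and photosynthesis has 8 blue points and 1 red one, Rubisco activase at 5.26.

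RNA-binding and splicing proteins changed in both directions, with 24 of 82 kept PSs higher (29.3%) and 12 lower (14.6%), near and above the shares of all annotated PSs. A serine/arginine-type splicing factor matching At2g24590 had 2 PSs that moved alike. Ta.4537.1.S1_at read 12332, 14504 and 12603 under HS, against 1486, 1310 and 1296 in control, a log2 change of 3.27 ± 0.12, and Ta.4537.2.S1_a_at rose 11.5-fold. Such proteins help to choose splice sites. SR45, a splicing activator, was divided. Ta.3563.1.S1_at read 15757, 17924 and 14788 under HS and 2916, 2530 and 2914 in control, while Ta.16082.2.S1_x_at read 343, 267 and 347 under HS and 1149, 1080 and 991 in control, both called and both chosen after their values were seen. A PWI-domain splicing factor (Ta.11185.1.A1_at) read 389, 466 and 249 under HS, against 2024, 1999 and 1948 in control, 5.58-fold lower.

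Ribosomal proteins and translation factors had calls in 1 direction only, with 18 of 52 kept PSs higher (34.6%) and 0 lower, and a median change of 0.73. The shares of annotated PSs were 27.2% and 9.16%. Not every member rose, since in 2 PSs all HS arrays lay below all control arrays, and the lowest log2 change was −2.18. A ribosomal protein L18 family PS (Ta.1452.2.S1_x_at) read 4725, 6565 and 5134 under HS, against 1149, 1552 and 1206 in control, a 4.20-fold rise. Elongation factor 1-beta (Ta.1548.2.S1_x_at), which reloads the tRNA-carrying factor with GTP, read 6987, 6441 and 7066 under HS and 1555, 1798 and 1820 in control, a log2 change of 1.99 ± 0.14. The linker histone H1.2 (Ta.23485.1.S1_at) read 6627, 9660 and 7996 under HS and 1697, 1643 and 1733 in control, a log2 change of 2.24 ± 0.14. Core histones did not follow it as a group. Of 13 histone PSs, H1.2 included, 4 were higher and 4 lower. All 13 are also among the markers of dividing cells above, so the 2 counts are not separate results. Among the risers, a histone H2A PS (Ta.6538.2.S1_at) lay below background on all arrays of both groups. Histone H4 (Ta.10329.34.S1_x_at), a faller, read 310, 312 and 377 under HS and 1392, 979 and 1167 in control. Ubiquitin, F-box and proteasome PSs had 22 of 100 higher (22.0%) and 6 lower (6.0%), under the share of annotated PSs called higher. A ubiquitin carboxyl-terminal hydrolase (Ta.4282.1.S1_at), which trims ubiquitin from proteins, read 1042, 1130 and 1197 under HS, against 279, 255 and 230 in control.

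Surface and wall proteins gave some of the strongest rises outside the chaperones. Lipid transfer proteins, which bind lipids and are linked to the cuticle, had 10 of 17 kept PSs higher (58.8%) and 0 lower, at a median of 1.31. LTP3 (Ta.1282.4.S1_at) read 12317, 13978 and 9606 under HS, against 1274, 1121 and 1102 in control, a 10.2-fold rise (log2 change 3.35 ± 0.16, adjusted p = 3.85e-11). LTP1 (Ta.1337.2.S1_x_at) read 8596, 12051 and 7933 under HS and 1177, 1184 and 810 in control, a log2 change of 3.17 ± 0.42. Another LTP3 PS (Ta.1282.2.S1_x_at) was bright in both groups at 56162, 60404 and 58267 under HS and 22850, 25349 and 22340 in control. It was 1 of the 9 bright PSs called higher.

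Of 52 cell wall PSs, 19 were higher (36.5%) and 8 lower (15.4%). An extensin-like leucine-rich repeat protein (TaAffx.51944.1.S1_x_at) of the wall read 3630, 5748 and 4846 under HS, against 289, 427 and 329 in control, a 13.6-fold rise (log2 change 3.76 ± 0.28, adjusted p = 1.14e-08). A xyloglucan transferase (Ta.13337.1.S1_at), which cuts and rejoins wall polysaccharide, read 896, 1120 and 993 under HS and 9.49, 107 and 56.0 in control, at least 7.12-fold higher. Pectate lyase (Ta.11160.1.S1_s_at), which cleaves pectin, read 158, 57.1 and 123 under HS and 2023, 2177 and 2175 in control, at least 15.2-fold lower (adjusted p = 0.000377, but 0.0186 and no call without control replicates 2 and 3), and a pectinesterase (Ta.13308.1.S1_at) read 628, 597 and 545 under HS and 2414, 2191 and 2130 in control. Both pectin enzymes named by the rule fell.

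A pair of serine protease inhibitor PSs of the potato inhibitor I type, an insect defence family, rose alike. Ta.28659.3.S1_x_at read 13869, 15581 and 13671 under HS, against 1243, 994 and 1258 in control, a 12.4-fold rise, and Ta.28659.1.S1_x_at an 11.6-fold rise. They share a cluster number and may read the same transcripts. Glucanases, chitinases and pathogenesis-related proteins went both ways, with 5 of 12 kept PSs higher (41.7%) and 3 lower (25%). A glycosyl hydrolase family 17 PS, Ta.10.1.S1_a_at, chosen after its values were seen, read 17332, 18625 and 19196 under HS, against 5808, 6056 and 6297 in control, a 3.04-fold rise. Another glycosyl hydrolase family 17 PS (Ta.12098.1.S1_at) read 774, 856 and 792 under HS and 3343, 3064 and 3016 in control, and a disease resistance-responsive PS (Ta.17876.1.S1_at) read 759, 645 and 707 under HS and 4609, 4412 and 4216 in control, 6.28-fold lower.

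Dehydration genes had calls in both directions. The soil was kept moist in both groups, but the paper reports a lower leaf relative water content for Ofanto under HS than in control or under DS. It was measured on the leaf below the flag leaf, and its part in these values was not tested. Of 21 dehydrin, LEA and low temperature PSs, 4 were higher (19.0%) and 2 lower (9.52%), with a median change of 0.20. The shares of annotated PSs were 27.2% and 9.16%, and their median was 0.55. RCI2B (Ta.2678.2.S1_x_at), a small hydrophobic membrane protein, read 10694, 10488 and 9400 under HS, against 4008, 4602 and 4491 in control, a log2 change of 1.22 ± 0.14. The LEA3 family PS Ta.14740.1.S1_at read 169, 136 and 237 under HS and 1987, 2100 and 2006 in control, 11.5-fold lower (log2 change −3.53 ± 0.21, adjusted p = 5.24e-10). Dehydrin RAB18 (Ta.13255.1.S1_at, chosen after its values were seen) read 30.0, 38.1 and 26.2 under HS and 7.80, 18.1 and 54.0 in control, below background in both groups. The list thus held 1 deep fall, a few shallow rises and many PSs without a call.

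Abscisic acid signalling showed no common direction. The kinase OST1, which opens the way to stomatal closure, is reported by several PSs. Ta.6040.1.S1_a_at read 1041, 1129 and 1060 under HS, against 398, 469 and 472 in control (log2 change 1.27 ± 0.12), while Ta.6918.1.S1_at read 976, 822 and 1003 under HS and 3442, 4079 and 3760 in control (log2 change −2.01 ± 0.22). A further 3 OST1 PSs, of which Ta.991.1.S1_at is one, had log2 changes of 0.43 to 0.69 and missed the 2-fold limit. RD20 (Ta.9830.2.S1_at), a calcium-binding lipid droplet protein, read 143, 189 and 303 under HS and 33.9, 39.2 and 14.8 in control, at least 1.44-fold higher. Of 11 protein phosphatases 2C, a family in which some members switch the pathway off, 2 were higher and 2 lower. The risers were P2C-HA (Ta.12348.1.A1_at), at 1229, 1481 and 1410 under HS and 471, 303 and 397 in control, and an At2g29380-like PS (Ta.10207.1.S1_at, log2 change 1.94). Both fallers matched another gene, At2g25620. The list was not sorted by part in the pathway, so its split is not read as a direction of the pathway.

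Cytokinin response regulators were among the deepest falls. These small receiver proteins are induced by cytokinin and damp its signal. ARR6-like Ta.11777.1.S1_x_at read 399, 240 and 253 under HS, against 3072, 3452 and 2848 in control, 10.8-fold lower (log2 change −3.43 ± 0.51, adjusted p = 3.04e-05). RR3-like Ta.10408.1.S1_at read 687, 515 and 478 under HS and 5642, 6006 and 5470 in control, 10.3-fold lower (log2 change −3.37 ± 0.45, adjusted p = 8.28e-06). Across all 17 hormone response PSs 6 were higher and 2 lower, and the ethylene response factor RAP2.12 (Ta.14074.2.S1_a_at), part of oxygen sensing in Arabidopsis, read 1105, 1186 and 1405 under HS and 190, 213 and 236 in control, a 5.78-fold rise.

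**Figure D4:**
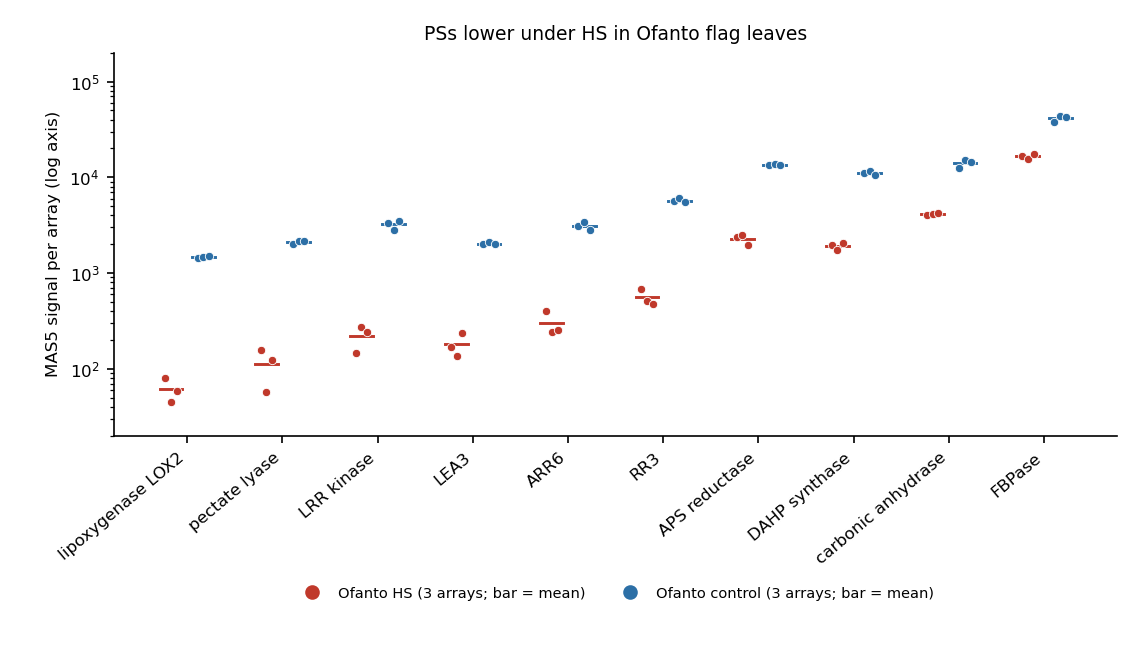
MAS5 signal of 10 PSs lower under HS on a log axis, with the 3 HS arrays in red left of the 3 control arrays in blue and a bar at each mean. The groups are apart in all 10, from LOX2, whose HS signals of 44.4 to 80.1 lie below background, to fructose-1,6-bisphosphatase, 2.49-fold lower.

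Other deep falls named by the rule came from several roles. A leucine-rich repeat receptor kinase (Ta.12127.1.A1_at) read 146, 274 and 239 under HS, against 3326, 2838 and 3511 in control, 15.1-fold lower (log2 change −3.92 ± 0.49, adjusted p = 3.86e-06). Lipoxygenase LOX2 (Ta.1967.1.S1_x_at), which starts jasmonate synthesis in the chloroplast, read 80.1, 44.4 and 58.5 under HS and 1446, 1467 and 1513 in control, at least 11.3-fold lower (adjusted p = 0.000351, but 0.017 and no call without control replicates 2 and 3). APS reductase (Ta.14417.1.S1_at), the entry to sulfate reduction, read 2389, 2485 and 1962 under HS and 13305, 13747 and 13497 in control, 5.96-fold lower. DAHP synthase (Ta.1906.1.S1_at), the first enzyme of the shikimate pathway, read 1957, 1731 and 2042 under HS, against 11187, 11588 and 10474 in control, 5.81-fold lower. An EXS family PS (Ta.19715.1.S1_at), related to phosphate exporters, read 27.6, 4.12 and 57.4 under HS and 1106, 1176 and 1064 in control, at least 8.52-fold lower. In each of these 5 the control arrays lay within a narrow range and every HS array beneath it.

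Transporters and kinases were split. Of 59 transporter and aquaporin PSs 17 were higher (28.8%) and 14 lower (23.7%), and of 64 kinases 18 (28.1%) and 10 (15.6%). The vacuolar water channel delta-TIP (Ta.1082.2.S1_x_at) read 6302, 7048 and 5968 under HS, against 910, 822 and 860 in control, a 7.44-fold rise (log2 change 2.90 ± 0.24, adjusted p = 4.32e-08). An ABC transporter (Ta.10325.1.S1_at) read 170, 104 and 235 under HS and 1220, 1049 and 1429 in control, and the glucose carrier STP1 (Ta.12517.1.S1_at) read 145, 226 and 219 under HS and 1111, 630 and 779 in control. A protein kinase PS (TaAffx.14498.1.S1_at) was bright at 15643, 17564 and 15834 under HS, against 2231, 2222 and 2628 in control, a log2 change of 2.79 ± 0.11. Calcium-binding proteins had 3 of 26 higher and 5 lower, with calreticulin 3 (Ta.14837.3.S1_x_at), a chaperone of the endoplasmic reticulum, at 10360, 9081 and 9263 under HS and 25817, 27138 and 30391 in control, 2.90-fold lower. Transcription factors other than heat shock factors were seldom called, 6 of 53 higher (11.3%) and 4 lower (7.55%), and a myb family PS (Ta.11849.1.S1_at) read 1327, 2647 and 2510 under HS and 369, 281 and 209 in control.

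In carbohydrate metabolism 10 of 22 kept PSs were higher (45.5%) and 3 lower (13.6%). Beta-amylase (Ta.4494.1.S1_x_at), which releases maltose from starch, read 1102, 1456 and 1457 under HS, against 30.1, 157 and 142 in control, at least 9.20-fold higher. Sucrose synthase (Ta.11152.3.S1_at), which splits sucrose for wall and starch synthesis, read 1490, 1505 and 1457 under HS and 284, 261 and 280 in control, a 5.4-fold rise. Falls were starch phosphorylase (Ta.1197.1.S1_x_at) at 3473, 3878 and 4219 under HS and 11540, 12169 and 9403 in control, and isoamylase (Ta.19443.1.S1_at), which debranches starch, at 985, 1127 and 943 under HS and 3219, 2888 and 2966 in control. Starch-degrading PSs therefore appeared among both the risers and the fallers.

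Antioxidant PSs had 9 of 48 higher (18.8%) and 2 lower (4.17%), both shares under those of annotated PSs. Glutathione S-transferase Ta.23704.1.S1_s_at read 8188, 9854 and 9017 under HS, against 1496, 1636 and 1596 in control, a 5.71-fold rise. A glutaredoxin family PS (Ta.1730.1.A1_at), a small thiol reductase, read 1371, 1994 and 1412 under HS and 8036, 6831 and 5928 in control, a log2 change of −2.13 ± 0.50. Beta-oxidation and the glyoxylate cycle, which turn fatty acids into sugars in senescing or germinating tissue, had 17 kept PSs annotated, 1 higher and 0 lower. Their median change was 0.36. In 11 of the 17 all HS arrays lay above all control arrays and in 0 below, against 1494 and 525 of the 2500 annotated PSs. The riser was a thiolase (Ta.1383.1.S1_s_at) at 2211, 2050 and 2071 under HS and 962, 1114 and 1016 in control, and without control replicates 2 and 3 or without control replicate 1 it was no longer called. AAE7 (TaAffx.31783.1.S1_at) had the largest change of the list, from control signals below background, and missed the threshold (log2 change 2.44, limma adjusted p = 0.0149). Acyl-CoA oxidase 2 (Ta.10260.1.S1_at) read 1322, 1257 and 1064 under HS and 1277, 1205 and 1468 in control, groups that overlapped. Isocitrate lyase (TaAffx.79139.1.S1_at), which with malate synthase defines the glyoxylate cycle, read 58.6, 4.13 and 15.1 under HS and 54.2, 7.78 and 4.25 in control, below background on all 6 arrays.

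Some PSs of branched-chain amino acid breakdown that the study names were called higher. CHY (TaAffx.108337.1.S1_s_at), a hydrolase of valine breakdown in the peroxisome, read 5707, 5951 and 5238 under HS, against 2193, 2443 and 2802 in control, a log2 change of 1.19 ± 0.13. BCKDH (Ta.12252.1.S1_s_at), of the branched-chain ketoacid dehydrogenase, read 1030, 780 and 697 under HS and 320, 271 and 317 in control, a log2 change of 1.45 ± 0.39. The regulatory subunit of acetolactate synthase (Ta.6111.1.S1_x_at), on the synthetic side of the same amino acids, read 1516, 3392 and 1888 under HS and 64.7, 114 and 111 in control, at least 15.2-fold higher. An aconitase PS (TaAffx.6397.1.S1_at), which the study places in the glyoxylate cycle and which is not in the list above because the tables give it no annotation, read 990, 931 and 1021 under HS and 217, 241 and 337 in control, a log2 change of 1.91 ± 0.31.

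By rule the PSs with the brightest mean signal were named too, although brightness also depends on the probes of a PS. Besides Rubisco activase, LTP3 and HSP25.3-P, the 5 named for their mean HS signal included isopentenyl diphosphate isomerase II (Ta.14572.1.S1_at), of isoprenoid synthesis, and the translationally controlled tumour protein homologue (Ta.1310.1.S1_x_at). The first read 50033, 55176 and 52511 under HS, against 16432, 15178 and 16013 in control, and the second read 44514, 51666 and 45618 under HS and 15000, 18142 and 17586 in control. Among the PSs brightest in control, adenosylhomocysteinase (Ta.1258.1.S1_a_at), which clears the by-product of methylation, read 21985, 24847 and 23550 under HS and 59458, 59842 and 58637 in control, 2.53-fold lower. A metallothionein (Ta.1987.1.S1_x_at), a metal-binding protein, read 24839, 25206 and 22232 under HS and 49219, 55457 and 61432 in control, 2.29-fold lower. An unnamed protein matching At5g66780 (Ta.14617.1.S1_at) had the second largest bounded rise among annotated PSs, with 12656, 17486 and 12449 under HS and 66.9, 122 and 52.2 in control.

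The HS response of Ofanto was set against that of Cappelli, whose arrays have controls of their own. The difference between the responses, Ofanto minus Cappelli, was called for 3851 PSs (13.7%), 2354 with a more positive response in Ofanto (8.39%) and 1497 with a more positive one in Cappelli (5.33%). The split was 2614 and 1052 with arrays centred, and the count was 2523 without Ofanto control replicates 2 and 3. Among annotated PSs 23.5% were called, 8.08% more positive in Ofanto and 15.4% in Cappelli. Of the 2916 PSs higher under HS in Ofanto, 1141 (39.1%) were also called higher in Cappelli, which is 36.4% of Cappelli's risers, and of the 2095 lower in Ofanto 1148 (54.8%) were lower in Cappelli, or 30.2% of Cappelli's fallers. In Cappelli 24.7% of kept PSs were called, 11.2% higher and 13.6% lower.

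Where the response of a chaperone PS differed, it was mostly more positive in Cappelli. The median change of the small heat shock proteins was 4.94 in Ofanto and 8.23 in Cappelli. Many control signals of this list lay below background, so these medians are not read as sizes. The bounded median was 4.08 in Ofanto and was not computed for Cappelli. The difference between the responses was called for 11 PSs, 9 of them more positive in Cappelli. For HSP101 and ClpB the medians were 2.68 in Ofanto and 5.33 in Cappelli, with 5 PSs more positive in Cappelli and 1 in Ofanto. That 1, Ta.14762.1.S1_at, had log2 changes of −1.84 in Ofanto, not called, and −5.21 in Cappelli, called. For HSP70 and HSP90 the medians were 1.55 in Ofanto and 2.24 in Cappelli, with 11 PSs more positive in Cappelli and 0 in Ofanto. Chaperonins were close, at 1.22 in Ofanto and 1.44 in Cappelli, with 2 PSs more positive in Cappelli. HSP22.0-ER showed the pattern at its widest among the chaperone PSs named here, with 832, 3832 and 3819 in Ofanto HS and 93.3, 21.4 and 32.4 in Ofanto control, against 30488, 28703 and 36033 in Cappelli HS and 49.7, 5.64 and 16.1 in Cappelli control, a difference of −5.06 on the log2 scale (adjusted p = 0.00157). The At2g32120-like HSP70 read 29090, 25174 and 32813 in Cappelli HS and 57.6, 10.2 and 54.3 in Cappelli control, a difference of −4.25. All Cappelli HS arrays of both PSs lay far above all Ofanto HS arrays, from control levels that overlapped. Those control levels were below background in both cultivars, so −5.06 and −4.25 are not read as sizes.

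RHSF11 differed by −3.27 (adjusted p = 2.52e-05), and here the controls differed too, since it read 694, 681 and 545 in Ofanto control and 121, 148 and 129 in Cappelli control, while Cappelli HS read 3015, 3619 and 5098. Rubisco activase, by contrast, read 63108, 50944 and 61129 in Cappelli HS and 1287, 1160 and 1407 in Cappelli control, and its difference of −0.24 did not pass the test (adjusted p = 0.479). The HSP25.3-P PSs were divided. Ta.201.1.S1_at differed by −0.68 without a call (limma adjusted p = 0.579). Ta.202.1.S1_at, Ta.12042.1.S1_at and Ta.2747.1.S1_at differed by −4.01, −1.88 and −4.69 and were called. Control signals of Ta.202.1.S1_at and Ta.2747.1.S1_at lay below background in both cultivars, so −4.01 and −4.69 are not read as sizes.

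Other PSs had a more positive response in Ofanto. RAP2.12 differed by 2.71 (adjusted p = 4.04e-08), and Cappelli read 1362, 1321 and 1528 under HS and 1724, 1356 and 1707 in control, so that Ofanto HS approached the level Cappelli held in both. Delta-TIP differed by 1.33, with Cappelli at 3771, 3162 and 1771 under HS and 1007, 879 and 921 in control. Of the ribosomal and translation PSs 12 of 52 had a more positive response in Ofanto and 5 a more positive one in Cappelli. CP26 differed by 2.40, with a log2 change of −0.84 in Ofanto, not called, and −3.24 in Cappelli.

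A contrast of level between the cultivars was seen in HEL (TaAffx.100436.1.S1_at), a transcript without a named protein that the study calls High Expression Level, included here after its values were seen. It read 15014, 18249 and 18264 in Ofanto HS, against 1298, 950 and 1016 in Ofanto control, a 15.9-fold rise (log2 change 3.99 ± 0.38, adjusted p = 1.73e-07). Cappelli read 11.4, 8.44 and 15.5 under HS and 48.6, 16 and 58.4 in control, below background throughout, and the difference between the responses was 5.63 (adjusted p = 1.38e-06). The Cappelli log2 change of −1.64 lies wholly below background and is not read as a fall. It enters the 5.63, however, and the Ofanto change by itself was 3.99. The stretch of its cDNA given by the study, 223 bases, is shown because it fixes the identity of this unnamed PS. Capitals mark the forward primer, from base 50 counted from the 5′ end, and the site of the reverse primer, from base 120, which enclose 96 bases.
HEL: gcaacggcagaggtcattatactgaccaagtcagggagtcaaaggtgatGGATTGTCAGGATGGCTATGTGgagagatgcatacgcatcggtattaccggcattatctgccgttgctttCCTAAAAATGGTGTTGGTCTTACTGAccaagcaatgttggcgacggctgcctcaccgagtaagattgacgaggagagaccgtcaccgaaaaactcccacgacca

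**Figure D5:**
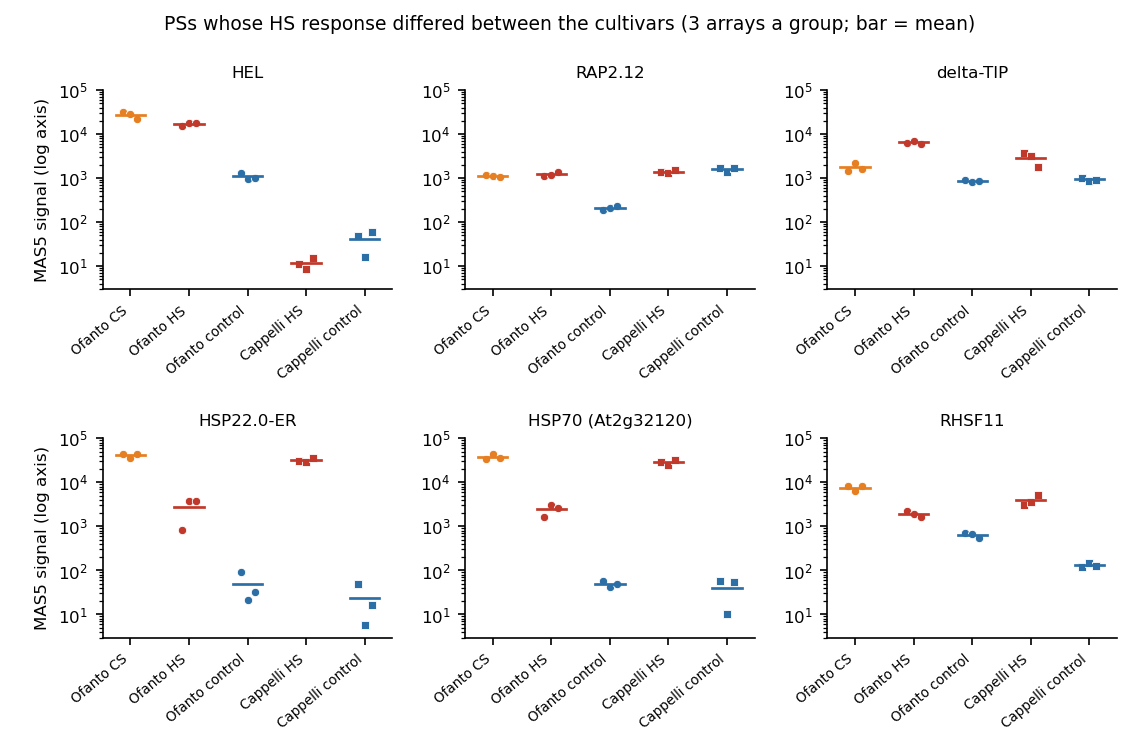
MAS5 signal of 6 PSs on log axes in Ofanto CS, Ofanto HS, Ofanto control, Cappelli HS and Cappelli control, with 3 arrays a group and a bar at each mean. HEL, RAP2.12 and delta-TIP had the more positive response in Ofanto, and HSP22.0-ER, HSP70 and RHSF11 in Cappelli, where HSP22.0-ER reached 30488, 28703 and 36033.

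CS against HS in Ofanto, which shares the HS arrays with the comparison above, called 5572 PSs (19.8%), 1890 higher (6.73%) and 3682 lower (13.1%), at a median change of −0.204 over all kept PSs, and 2439 higher and 2696 lower with arrays centred. Among annotated PSs 38.7% were called, 26.5% higher and 12.2% lower. Of the small heat shock proteins 20 of 24 were higher in CS than in HS and 0 lower, of HSP101 and ClpB 7 of 8, of HSP70 and HSP90 34 of 44 with 1 lower, and of the heat regulators 10 of 12. Chaperonins had 7 of 32. HSP22.0-ER read 43967, 35441 and 45030 in CS, against 832, 3832 and 3819 in HS, a difference of 4.16 on the log2 scale with adjusted p = 0.00018, and the At2g32120-like HSP70 read 33624, 45080 and 36775 in CS and 1603, 3052 and 2640 in HS. RHSF11 read 8083, 6550 and 8139 in CS, against 2200, 1926 and 1639 in HS, a log2 change of 1.98.

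Other PSs and lists went various ways between CS and HS. Rubisco activase read 78223, 58765 and 65876 in CS, against 60466, 60368 and 61598 in HS. HEL read 31068, 27896 and 21899 in CS and 15014, 18249 and 18264 in HS. Neither was called, although every CS array of HEL lay above every HS array of HEL. Delta-TIP was lower in CS at 1451, 2162 and 1647, against 6302, 7048 and 5968 in HS, a log2 change of −1.89 (adjusted p = 6.22e-06). Ribosomal and translation PSs had 2 of 52 higher and 16 lower in CS than in HS. Dehydrin, LEA and low temperature PSs had 13 of 21 higher and 1 lower. Between HS and control, a comparison that shares the HS arrays, 4 were higher and 2 lower.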

How the data were processed

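The authors deposited one value table of MAS5 signal, a linear intensity, for 24 arrays of the Affymetrix Wheat Genome Array with 61290 PSs. The methods describe RMA values and MAS 5.0 detection calls, neither of which was used here, and the labels and methods differ on RNA extraction and labelling. The 111 control PSs were left out and log2 was taken with no offset. R 4.3.3 with limma 3.58.1 fitted 8 group means to all 24 arrays (16 residual degrees of freedom), with Benjamini-Hochberg adjustment over the 28072 kept PSs. Contrasts were HS minus control in Ofanto, its difference from Cappelli, and CS minus HS. Python 3.11.15 with pandas 2.3.3, numpy 2.4.6 and matplotlib 3.10.9 made the summaries and figures. The fit was tested on simulated data. Precision is limited by 3 arrays a group, and no 2 arrays were identical.

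Named PSs were, 1 per annotation, the 15 largest bounded rises and falls, the 10 largest rises and falls with both groups above background, up to 3 in each direction for each gene list (every member in lists of 8 or fewer), the 5 brightest in each group, heat, OST1, RD20 and lipid breakdown PSs that the study names, and the 5 largest differences between cultivars each way. Part of these is printed, and any other PS is marked as chosen after its values were seen. The members, lists and tests were chosen with earlier results of these data known. List members were found by words of the annotation or by Arabidopsis code. After the values were seen, false word matches were removed, such as methionine for thionin. Columns of the study's own comparisons were not used.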

Additional observations from a re-analysis of the deposited data

Results flagged for a closer look

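The response to HS differed between the cultivars, by a test of the difference itself (limma, adjusted p under 0.01 and at least 2-fold), for 3851 PSs, and each value below is the log2 difference, Ofanto minus Cappelli. Among annotated PSs, the largest with a more positive response in Ofanto were chalcone synthase (Ta.11122.1.A1_at, 7.29), the first enzyme of flavonoid synthesis, arabinogalactan-protein AGP23 (Ta.1674.1.S1_s_at, 7.08), a glycosyl hydrolase family 17 PS (Ta.1174.1.S1_x_at, 5.94), a vesicle-associated membrane protein (Ta.10236.2.S1_a_at, 5.84) and a germin-like protein (Ta.169.1.S1_x_at, 5.65). Among the same PSs, the largest with a more positive response in Cappelli were an unnamed protein (Ta.12654.1.S1_at, −8.13), a Tim17-type import protein (Ta.4874.1.S1_at, −7.60), a pair of PSs of a 2OG-Fe(II) oxygenase (Ta.5703.1.S1_x_at and Ta.5703.1.S1_at, −7.47 each) and malate synthase (Ta.23970.1.A1_at, −7.13). The glycosyl hydrolase family 17 PS Ta.1174.1.S1_x_at was called lower in both cultivars, at log2 changes of −3.554 in Ofanto and −9.4955 in Cappelli. Its mean HS signals lay below background in both, so the 5.94 is not read as a size. On the bounded scale its Ofanto fall was at least 3.45-fold.

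Among other named PSs the response was also more positive in Ofanto for HEL (5.63, which includes a Cappelli change below background), RAP2.12 (2.71), CP26 (2.40), the ribosomal protein L18 family PS (2.39), the At2g01400-like protein Ta.9157.1.S1_at (1.95), DAHP synthase (1.80), the protease inhibitor Ta.28659.3.S1_x_at (1.50), delta-TIP (1.33) and isopentenyl diphosphate isomerase II (1.21). It was more positive in Cappelli for HSP22.0-ER (−5.06), the At2g32120-like HSP70 (−4.25), RHSF11 (−3.27), the extensin-like protein TaAffx.51944.1.S1_x_at (−2.65), the HSP100 PS Ta.9115.1.S1_at (−2.61), the glutathione S-transferase Ta.23704.1.S1_s_at (−1.63) and CPN60 (−1.25). Controls of HSP22.0-ER and the At2g32120-like HSP70 lay below background in both cultivars, so their values are not read as sizes. Of the unannotated PSs below, TaAffx.131916.5.S1_at differed by 6.22 and Ta.27757.1.S1_at by 4.18.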

How the results depend on the processing

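Ofanto HS against control called 5011 PSs. The count was 1223 by the methods' t-test (Welch, Benjamini-Hochberg) and 8875 with no minimum fold, and 4490 to 4703 when any 1 array of either group was left out. The difference between cultivars called 3851 PSs, 742 by the methods' t-test, 2523 without Ofanto control replicates 2 and 3, and 3214 to 3907 with 1 array left out. CS against HS called 5572, 546 by the methods' t-test, 3632 with the 80th percentile as filter, 9650 with no minimum fold, and 4851 to 5594 with 1 array left out. With the replicate number as a block the counts were 4933, 3667 and 5515, and the numbers did not pair the arrays, since deviations of same-numbered HS and control arrays correlated at −0.0223, −0.0181 and 0.00423. Without control replicates 2 and 3, whose descriptions name drought, HS against control called 3706 PSs, 2516 higher and 1190 lower. With arrays centred the share of calls that were higher was 73.1% for HS against control, 71.3% for the difference between cultivars and 47.5% for CS against HS, where the deposited scale gave 58.2%, 61.1% and 33.9%. Beyond the design of each setting, the cause of these changes was not tested.

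Of 576 tests of 36 named PSs under 16 alternatives, 547 kept their call, 29 kept the direction and lost the call, 23 of them in the methods' t-test, 4 without control replicates 2 and 3, 1 without HS replicate 2 and 1 without control replicate 3, and 0 reversed. The 36 are only part of the PSs named above, and their counts do not extend to the others. With 3 arrays a group the t-test has few degrees of freedom. Gene list counts under these settings were added after seeing the data. Signals below the 60th percentile carry no order, so the size of a change from or to background is a bound.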

Other observations

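Most PSs called have no name in the tables used here, and some of the largest changes were among them, chosen after their values were seen. TaAffx.131916.5.S1_at read 15463, 13164 and 8897 in Ofanto HS, against 47.4, 75.9 and 111 in Ofanto control, at least 86.9-fold higher (log2 change 7.37 ± 0.30, limma adjusted p = 7.22e-12). It read 164, 300 and 215 in Ofanto CS and 152, 178 and 160 in Cappelli HS, so that its high level was seen in Ofanto HS alone among these groups. CS minus HS was −5.80 on the log2 scale (adjusted p = 3.13e-10), opposite in sign to the chaperones.

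Ta.27757.1.S1_at read 153, 237 and 314 in Ofanto HS, against 30196, 19727 and 28506 in Ofanto control, 114-fold lower (log2 change −6.84 ± 0.41, adjusted p = 5.24e-10), and Cappelli read 30.3, 14.5 and 15.6 under HS and 37595, 39805 and 41068 in control. Ta.21556.1.S1_x_at read 4.6, 109 and 133 in Ofanto HS and 7075, 7829 and 8958 in Ofanto control, at least 60.5-fold lower.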
